A study of Mus musculus with 10 samples.

Results

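The genes described here encode the integrin alpha and beta subunits and the laminin alpha, beta and gamma chains. They were all rows of the deposited count table whose symbol is Itga with a number, Itga2b or Itgav, Itgb with a number, or Lama, Lamb or Lamc with a digit. There were 32 such genes among 37882, made up of 13 integrin alpha, 8 integrin beta, 5 laminin alpha, 3 laminin beta and 3 laminin gamma genes. The alpha subunits of leukocyte integrins that are named by a letter other than v (Itgad, Itgae, Itgal, Itgam and Itgax) lie outside this rule.

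RNA was sequenced from orthotopic tumours of MCa-M3C, a mouse mammary cancer cell line, grown in FVB/N mice. The TMA-ARB group (n = 5, replicates 6 to 10) received daily intravenous TMA-ARB at 40 mg/kg valsartan for 6 days, starting from tumours of about 100 mm3. Valsartan blocks the angiotensin II receptor, and TMA-ARB stands for a blocker of this kind that is activated by the tumour microenvironment. The Control group (n = 5, replicates 1 to 5) received the same volume of PBS. All tumours came from a single cell line in a single host strain. Whether every library came from its own mouse is not stated, so the tests rest on the scatter among libraries, which may be partly technical. Where values are given per tumour below, the word stands for a library, and n counts libraries.

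Integrins are cell surface receptors made of an alpha and a beta subunit, and the pair decides which matrix proteins or cell surface ligands are bound. Laminins are basement membrane proteins made of an alpha, a beta and a gamma chain wound into a cross-shaped trimer. Laminin-binding integrins join cells to basement membranes, while other integrins bind fibronectin, collagens, or ligands on vessel walls that leukocytes use to enter tissue.

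Library totals ran from 12742953 to 16884621 counts. Mitochondrially encoded transcripts took a share of the counts that ran from 2.22% to 25.0% in TMA-ARB libraries and from 2.07% to 6.63% in Control libraries. It averaged 10.5% ± 9.12 and 4.19% ± 2.21 (SD, n = 5 each; two-sided exact permutation p = 0.143, where the smallest possible p is 0.00794). TMA-ARB replicates 8, 9 and 10 and Control replicates 3 and 4 lay above 5%, and the other 5 libraries lay below. Markers of the labelled breast origin were unequal. The keratin gene Krt18 ranged from 82.5 to 201 CPM in TMA-ARB libraries and from 62.1 to 143 CPM in Control libraries, and made up most of the sum of the 7 epithelial markers in 9 of 10 libraries (106 to 238 CPM and 83.3 to 159 CPM). Krt8 ranged from 8.24 to 56.8 CPM and from 8.04 to 16.8 CPM (log2 fold change 1.23, unadjusted p = 0.0122, edgeR adjusted p = 0.997). Epcam ranged from 0.517 to 12.1 CPM in TMA-ARB libraries and from 0.910 to 3.07 CPM in Control libraries, and Cldn3 and Cldn7 were at 0 in several libraries of each group. Of the 5 tested epithelial markers 4 were positive, and Cdh1 was negative (log2 fold change -0.32). TMA-ARB replicate 6 held the highest values of Krt8, Epcam, Cdh1, Cldn3, Cldn7 and Krt19, the last at 51.6 CPM. It also held the highest values of the fat cell markers Cfd and Cidec, at 3.09 and 0.787 CPM. The part of these markers in the other values of replicate 6 was not tested. The 6 fibroblast markers, among them Pdgfra and Col1a1, summed to 4324 to 4872 CPM in TMA-ARB libraries and to 4132 to 5195 CPM in Control libraries. Single markers were less even than the sum. Dcn was highest and Col1a1 lowest in TMA-ARB replicate 9 (2912 and 1116 CPM), and the reverse held in TMA-ARB replicate 6 (871 and 2901 CPM). Of the 6 markers 3 had positive and 3 negative log2 fold changes. Among the negative ones was Pdgfrb at -0.58 (unadjusted p = 0.0434, edgeR adjusted p = 0.997). Among the positive ones were Lum at 0.95 and Col1a2 at 0.59 (unadjusted p = 0.0805 and 0.0515, edgeR adjusted p = 0.997 for each). In bulk tumours, fewer cells of a type and less RNA per cell cannot be told apart.

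Most of the integrin signal came from Itgb1 and a few of its partners. CPM here are counts scaled to a common library size, with library sizes scaled by TMM, a method that equalises the bulk of genes between libraries. Levels are compared between genes as CPM per kilobase of annotated exon. Itgb1, the beta subunit shared by most matrix-binding integrins (mm10 chromosome 8, 128685654 to 128733200), averaged 334 ± 107 CPM per kb in TMA-ARB tumours and 335 ± 76.6 in Control tumours (SD, n = 5 each). It made up 78.0% ± 4.13 and 75.2% ± 2.56 of the summed per-kb level of the 8 beta genes. The highest alpha gene was Itga5, which encodes the alpha subunit of the fibronectin receptor (chromosome 15, 103344286 to 103366763), at 53.3 ± 12.2 CPM per kb in TMA-ARB tumours and 64.1 ± 22.6 in Control tumours. Itga3, a subunit of laminin receptors, followed at 20.6 ± 4.03 and 19.7 ± 2.63. Itgav, the alpha subunit of the vitronectin receptors, was at 16.2 ± 2.76 and 16.9 ± 2.16, and Itga6, the alpha subunit that binds laminin with Itgb1 or Itgb4, at 13.8 ± 2.51 and 12.0 ± 1.94. With the longest coding transcript as the length, the order of Itga3, Itgav and Itga6 changed, while Itga5 stayed highest. The other alpha genes averaged 2.63 CPM per kb or less over the 10 libraries.

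**Figure D1:**
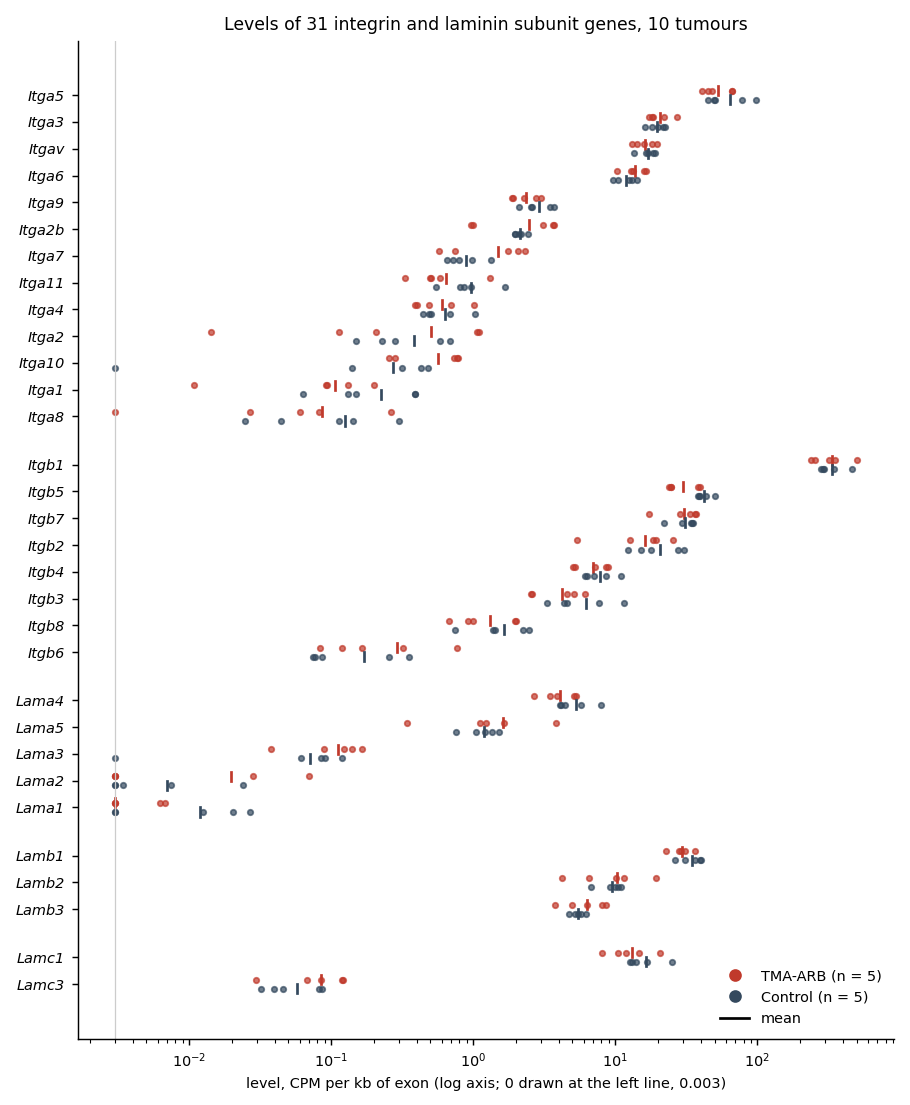
Level of each of 31 genes in CPM per kb of exon on a log axis, with 1 point per tumour (TMA-ARB above, Control below in each row) and a bar at the group mean; values of 0 are drawn at the left line. Itgb1 lies highest at about 334 CPM per kb in both groups, and Lama1 and Lama2 lie at the floor, each with 0 counts in 5 of 10 libraries.

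Among the other beta genes, Itgb5, a partner of Itgav in vitronectin binding, was at 30.2 ± 8.04 CPM per kb in TMA-ARB tumours and 42.0 ± 4.96 in Control tumours. Itgb7, known as the beta subunit of lymphocyte homing integrins, was at 30.6 ± 8.06 and 31.1 ± 5.57 CPM per kb. Its alpha partner Itga4 was far lower, at 0.601 ± 0.264 and 0.629 ± 0.243 CPM per kb. Without division by length, Itga4 averaged 8.40 ± 3.69 CPM in TMA-ARB tumours and 8.80 ± 3.40 CPM in Control tumours. The other partner, Itgae, outside the rule, averaged 1.30 ± 0.358 CPM in TMA-ARB tumours and 1.94 ± 0.932 CPM in Control tumours. The T cell marker Cd3e lay between 0 and 1.64 CPM in TMA-ARB libraries and between 0.430 and 2.08 CPM in Control libraries. Which cells the Itgb7 transcripts came from was not tested. Itgb2, the beta subunit of leukocyte integrins, was at 16.3 ± 7.66 and 20.6 ± 7.90 CPM per kb. Itgb4, the hemidesmosome subunit, was at 6.99 ± 1.83 and 7.84 ± 2.04, and Itgb6, an epithelial partner of Itgav, at 0.291 ± 0.280 and 0.170 ± 0.128.

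The highest laminin genes per kb within each chain class were Lama4, Lamb1 and Lamc1, which are the chains of a laminin typical of vessels. Their levels were unlike. Lama4 averaged 4.09 ± 1.10 CPM per kb in TMA-ARB tumours and 5.26 ± 1.62 in Control tumours, and Lamb1 29.5 ± 4.94 and 34.6 ± 5.92. Whether these transcripts came from vessels was not tested. Lama4 (chromosome 10, 38965515 to 39110188) made up 71.0% ± 16.6 of the summed per-kb level of the alpha chains in TMA-ARB tumours and 80.2% ± 2.84 in Control tumours. Lama5, the broad alpha chain of mature basement membranes, made up 26.6% ± 17.8 and 18.3% ± 2.71. Lamb1 (chromosome 12, 31265234 to 31329644) made up 64.8% ± 9.68 and 69.6% ± 2.62 of the beta chains, and Lamc1 (chromosome 1, 153218922 to 153332786) was at 13.1 ± 4.81 and 16.4 ± 5.15 CPM per kb. Chains known from epithelial basement membranes were unequal. Lamb3 was at 6.32 ± 2.03 and 5.47 ± 0.574 CPM per kb, whereas its alpha partner Lama3 was at 0.111 ± 0.0496 in TMA-ARB tumours and 0.0714 ± 0.0451 in Control tumours.

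Lama1, the embryonic alpha chain, held 11 counts over all 10 libraries, and Lama2, the alpha chain of muscle and nerve, held 35. Lamc3 held 63 counts and Itga8, a nephronectin receptor subunit, held 120. These 4 genes did not pass the low-count filter and were not tested. A library with 0 counts allows up to 3 counts, or 0.168 to 0.308 CPM depending on the library. The other 28 members passed the filter, 20 integrin and 8 laminin genes.

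The design compares TMA-ARB with Control tumours, and no integrin or laminin gene passed that test. EdgeR's quasi-likelihood test, with Benjamini-Hochberg adjustment over 14063 genes at 0.05, called 0 of 28 members, against 0% of all genes tested. DESeq2 called 0 members, against 0.00837% of all genes, and limma-voom with sample weights called 0, against 0%. At an unadjusted edgeR p under 0.05 there was 1 of 28 members, against 3.25% of all genes. At the same unadjusted limit DESeq2 gave 1 of 32 members, against 3.46%, and limma-voom 6 of 28, against 9.93%. In the libraries below and above a 5% mitochondrial share, edgeR gave 5 of 28 each, against 8.16% and 7.24%. Whether these counts differ from those of all genes was not tested. The TMA-ARB and Control values overlapped for all 28 tested members, and 0.526% of all genes tested had groups that did not overlap. The log2 fold change of TMA-ARB over Control was negative for 17 of 28 members, against 47.2% of all genes. The median was -0.06 over 20 integrin genes and -0.01 over 8 laminin genes, beside 0.02 over all genes tested. Of the 8 beta integrin genes 7 were negative, with a median of -0.25, and of the 12 tested alpha integrin genes 6 were negative. The 7 beta genes included Itgb7 at -0.023 and Itgb1 at -0.0025, and the sign of Itgb1 was reversed in 12 of 20 alternative runs.

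**Figure D2:**
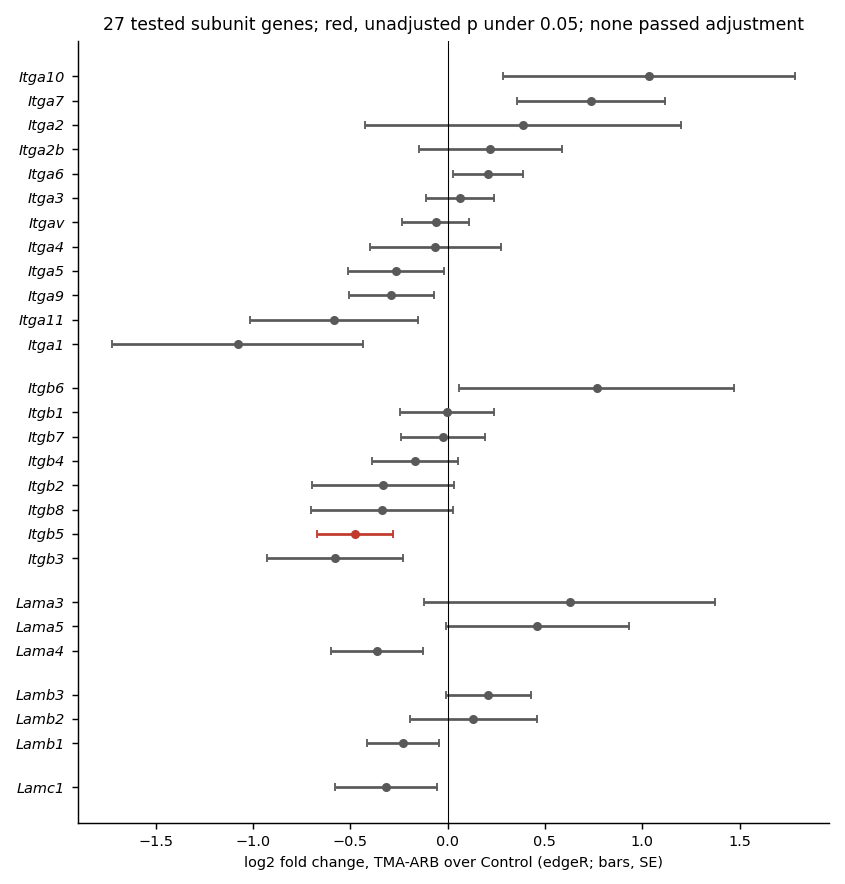
Log2 fold change of TMA-ARB over Control with its SE for 27 tested genes, by chain class. Itgb5, in red at -0.48 ± 0.19, is the only member with an unadjusted p under 0.05, and most bars reach or lie close to 0.

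Itgb5 (chromosome 16, 33829665 to 33949338) had the smallest unadjusted p of the members. It measured 141, 84.5, 136, 87.7 and 87.4 CPM in TMA-ARB replicates 6 to 10, against 136, 178, 141, 155 and 137 CPM in Control replicates 1 to 5. Replicates 7, 9 and 10 stood well below every Control tumour, while replicate 8 lay just under the lowest Control tumour and replicate 6 within the Control range. The log2 fold change was -0.48 ± 0.19 (SE) with an unadjusted p of 0.0276 (edgeR adjusted p = 0.997), and all 5 TMA-ARB tumours lay below the Control mean. Split at a 5% mitochondrial share, the log2 fold change was -0.51 in the libraries with more and -0.41 in those with less, and the libraries above it called 0 members, against 0.027% of all genes. This split was added after the data had been seen, and so was every comparison of its sides given below. The upper side held only TMA-ARB replicates 8, 9 and 10 and Control replicates 3 and 4.

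Promoter sequence is shown for Itgb5, as the member of smallest p, and for Itga2, as the member that varied most with library composition. Each holds 250 bases before and 50 after the annotated start, from RefSeq on GRCm38.p6, read on the gene's strand. Capitals mark the GC box GGGCGG or its reverse complement, found by a search of both strands.

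Itgb5 (chr16:33829415-33829714, plus strand): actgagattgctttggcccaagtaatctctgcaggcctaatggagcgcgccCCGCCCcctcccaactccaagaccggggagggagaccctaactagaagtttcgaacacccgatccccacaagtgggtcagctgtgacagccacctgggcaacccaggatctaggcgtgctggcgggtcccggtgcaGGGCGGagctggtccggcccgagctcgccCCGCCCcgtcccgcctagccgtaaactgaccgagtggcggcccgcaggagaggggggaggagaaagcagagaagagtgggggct
Itga2 (chr13:114932051-114932350, minus strand): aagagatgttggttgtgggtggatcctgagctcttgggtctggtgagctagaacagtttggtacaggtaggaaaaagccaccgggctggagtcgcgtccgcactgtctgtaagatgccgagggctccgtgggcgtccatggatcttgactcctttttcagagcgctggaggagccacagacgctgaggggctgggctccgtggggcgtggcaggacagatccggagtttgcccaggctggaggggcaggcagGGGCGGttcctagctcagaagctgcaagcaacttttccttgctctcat

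The Itgb5 promoter held 3 GC boxes and a GC content of 65.7%, and the Itga2 promoter held 1 and 59.3%, beside a median of 52.7% over 32851 promoters. A GC box was found in 35.7% of all promoters and in 11 of 24 member promoters, which covered 21 of the 32 genes. The TATA box TATAAA, searched on both strands, was found in 13.6% of all promoters and in 0 of the 24. A match is a description of these letters and not a bound site.

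The other beta subunit among the members of smallest p was Itgb3, the partner of Itgav on vessels and of Itga2b on platelets (chromosome 11, 104608000 to 104670476). It measured 35.9, 30.4, 15.3, 15.0 and 27.2 CPM in TMA-ARB tumours, against 45.2, 67.5, 25.6, 27.0 and 19.7 CPM in Control tumours. Control replicates 1 and 2 were the highest of the 10 libraries, and the other Control values lay within the TMA-ARB range. Its log2 fold change of -0.58 ± 0.35 had an unadjusted p of 0.122 (edgeR adjusted p = 0.997). It was -0.25 without Control replicate 2 and -0.14 with the mitochondrial share as a covariate. Itgb1 measured 1437, 2062, 1314, 967 and 1040 CPM in TMA-ARB tumours, against 1187, 1896, 1146, 1199 and 1403 CPM in Control tumours. The TMA-ARB values spread wider, with replicate 7 above and replicates 9 and 10 below every Control tumour, and the SE of its log2 fold change was 0.24 around a value of -0.0025.

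Among alpha subunits, 3 collagen receptor genes were among the members of smallest p, 2 with negative log2 fold changes and 1 with a positive one. Itga1, a collagen receptor subunit (chromosome 13, 114953096 to 115101964), measured 3.75, 2.43, 1.70, 1.74 and 0.203 CPM in TMA-ARB tumours, against 7.23, 7.24, 1.18, 2.80 and 2.43 CPM in Control tumours. Control replicates 1 and 2 again lay above the other 8 libraries. The log2 fold change was -1.08 ± 0.65 (unadjusted p = 0.117). Itga11, a collagen receptor subunit of fibroblasts (chromosome 9, 62677826 to 62783982), measured 2.60, 1.71, 6.72, 2.56 and 2.97 CPM in TMA-ARB tumours, against 4.14, 8.53, 4.45, 2.80 and 4.91 CPM in Control tumours. TMA-ARB replicate 8 alone exceeded most Control tumours, and the log2 fold change was -0.58 ± 0.43 (unadjusted p = 0.197), with -1.01 if TMA-ARB replicate 8 was left out and -0.30 without Control replicate 2. Itga10, a collagen receptor subunit known from cartilage (chromosome 3, 96645584 to 96664519), measured 1.45, 1.32, 3.99, 3.79 and 4.05 CPM in TMA-ARB tumours, against 2.24, 0.729, 2.48, 0 and 1.64 CPM in Control tumours. TMA-ARB replicates 8, 9 and 10 exceeded every Control tumour, and replicates 6 and 7 did not. The log2 fold change was 1.03 ± 0.75 (unadjusted p = 0.191). The adjusted p of edgeR was 0.997 for all 3 genes. Itga1 and Itga10 share 685 and 1739 exon bases with annotated genes on the same strand, so their counts are uncertain. With the mitochondrial share as a covariate Itga1 was at -0.46 and Itga10 at 0.52.

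Itga7, a laminin receptor subunit best known from muscle (chromosome 10, 128933818 to 128958282), measured 6.00, 4.67, 14.3, 18.7 and 16.8 CPM in TMA-ARB tumours, against 7.95, 5.83, 10.7, 6.39 and 5.28 CPM in Control tumours. TMA-ARB replicates 8, 9 and 10 again exceeded every Control tumour, and replicates 6 and 7 lay at or below the middle of the Control range. The log2 fold change was 0.74 ± 0.38 (unadjusted p = 0.0739; edgeR adjusted p = 0.997). Split at the same mitochondrial share, it came to 0.94 in the upper libraries and -0.25 in the lower ones, and with that share as a covariate to 0.08. The 6 skeletal muscle markers summed to 74.5, 76.2 and 56.3 CPM in the 3 high libraries and to 280 and 111 CPM in TMA-ARB replicates 6 and 7, with 80.1 to 196 CPM in Control tumours. Most of that sum was Acta1, at 278 and 110 CPM in TMA-ARB replicates 6 and 7. Myh1, Tnnt3, Mylpf and Ckm, at most 2.91 CPM in TMA-ARB tumours, were higher in replicates 8, 9 and 10 than in replicates 6 and 7. All of them were highest in Control replicates 1 and 3, where Mylpf measured 15.9 and 9.74 CPM and Ckm 25.0 and 7.78 CPM. Myh4 reached at most 0.0606 CPM in TMA-ARB tumours and 7.39 CPM in Control tumours. The 4 tested muscle markers had negative log2 fold changes, from -2.43 for Mylpf to -0.10 for Acta1 (edgeR adjusted p = 0.997 for each). The part of these markers in the result was not tested.

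Itga9, which binds tenascin and vessel ligands (chromosome 9, 118606690 to 118901003), measured 23.1, 17.6, 14.6, 21.2 and 14.5 CPM in TMA-ARB tumours, against 26.8, 28.4, 19.5, 16.3 and 20.1 CPM in Control tumours. The groups overlapped over most of their range, with a log2 fold change of -0.29 ± 0.22 (unadjusted p = 0.206). Itga5 measured 327, 201, 327, 221 and 238 CPM in TMA-ARB tumours, against 245, 479.7, 384, 249.8 and 222 CPM in Control tumours. Control replicates 2 and 3 were the highest libraries, and the log2 fold change was -0.27 ± 0.25 (unadjusted p = 0.297). Itga3, Itgav, Itga6 and Itga4 had log2 fold changes between -0.06 and 0.21. Both Itga9 and Itga5 had an edgeR adjusted p of 0.997, and without Control replicate 2 they were at -0.18 and -0.07. With the share as a covariate Itga9 was at -0.14.

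**Figure D3:**
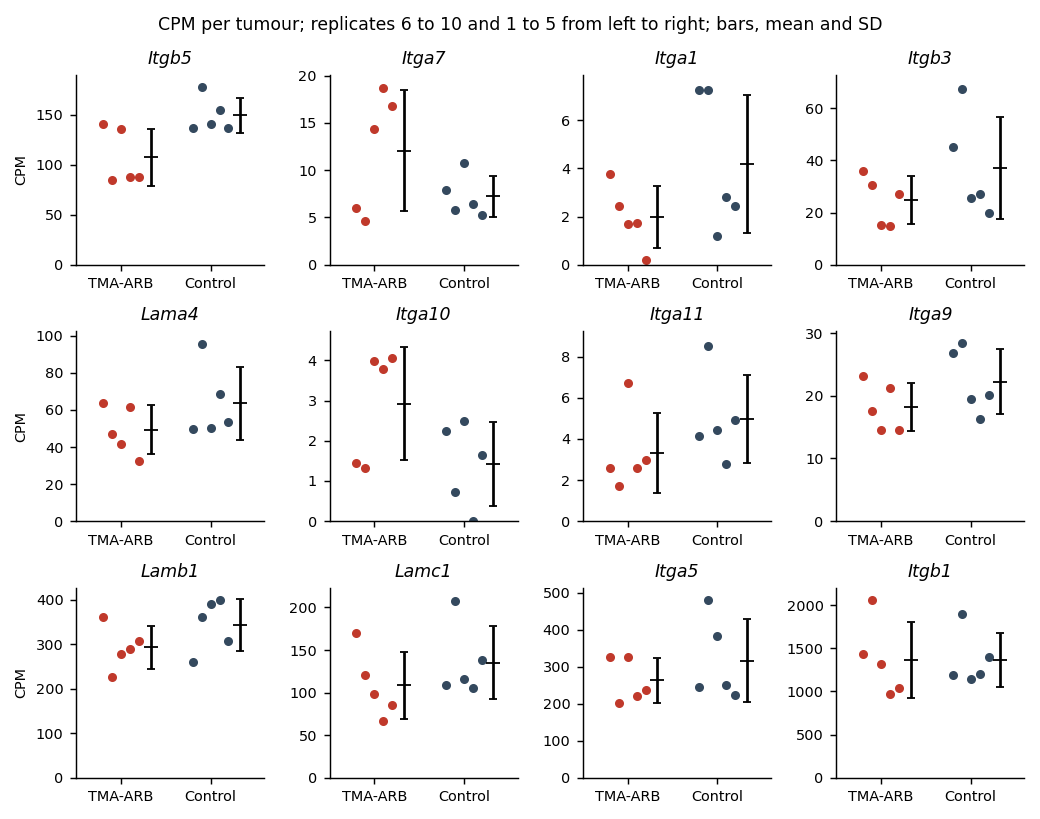
CPM per tumour for the 8 tested members of smallest unadjusted p and the highest member of each chain class, TMA-ARB replicates 6 to 10 at the left and Control replicates 1 to 5 at the right of each panel, with mean and SD. The groups overlap in every panel, and Itga7 and Itga10 show TMA-ARB replicates 8, 9 and 10 above all Control tumours while replicates 6 and 7 are not.

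The highest alpha, beta and gamma laminin chains per kb, Lama4, Lamb1 and Lamc1, had negative log2 fold changes that did not pass. Lama4 measured 63.7, 47.3, 41.8, 61.4 and 32.4 CPM in TMA-ARB tumours, against 49.6, 95.5, 50.3, 68.8 and 53.4 CPM in Control tumours. Replicates 7, 8 and 10 lay below every Control tumour, and the log2 fold change was -0.37 ± 0.24 (unadjusted p = 0.144). Lamb1 averaged 293 ± 49.0 CPM in TMA-ARB tumours and 344 ± 58.7 CPM in Control tumours (SD, n = 5 each), with values from 226 to 362 and from 260 to 399 CPM. Its log2 fold change was -0.23 ± 0.19. Lamc1 measured 171, 121, 97.9, 67.1 and 85.8 CPM in TMA-ARB tumours, against 108, 208, 117, 105 and 139 CPM in Control tumours, a log2 fold change of -0.32 ± 0.26. Replicates 8, 9 and 10 lay below every Control tumour, and replicates 6 and 7 did not. The edgeR adjusted p was 0.997 for all 3 chains. Without Control replicate 2 Lama4 was at -0.17 and Lamc1 at -0.11, and with the mitochondrial share as a covariate Lamc1 was at -0.032. Lama4 was at -0.24 without TMA-ARB replicate 10, Lamb1 at -0.14 without TMA-ARB replicate 7, and Lamc1 at -0.54 without TMA-ARB replicate 6 and at -0.18 if replicate 9 was left out instead. The 7 endothelial markers summed to 301, 297, 191, 185 and 203 CPM in TMA-ARB tumours, against 254, 402, 286, 243 and 234 CPM in Control tumours, and their part in these laminin values was not tested.

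Another 3 chains ranged more widely in treated than in Control tumours. Lama5 ranged from 3.88 CPM in replicate 7 to 43.4 CPM in replicate 8 of the TMA-ARB group, and from 8.68 to 17.4 CPM in Control tumours. Lamb2, the beta chain of muscle and kidney basement membranes, ranged from 25.5 to 117 CPM in TMA-ARB tumours, with the same lowest and highest replicates, and from 40.9 to 66.3 CPM in Control tumours. Lamb3 ranged from 24.9 to 57.0 CPM and from 31.2 to 41.3 CPM. For these 3 genes some TMA-ARB tumours lay above and others below every Control tumour. No test of the spread itself was run.

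Itga2b, the platelet fibrinogen receptor subunit (chromosome 11, 102453297 to 102470122), was chosen for description after its values were seen. It measured 5.27, 5.39, 19.9, 16.9 and 20.1 CPM in TMA-ARB tumours, against 10.7, 10.7, 11.9, 11.4 and 13.3 CPM in Control tumours. TMA-ARB replicates 6 and 7 lay below every Control tumour and replicates 8, 9 and 10 above, so that the 5 treated tumours left the whole Control range open between them. The log2 fold change was 0.22 ± 0.37 over all libraries, between 0.03 and 0.43 with 1 library left out, 0.70 in the libraries with over 5% mitochondrial counts and -1.11 in the others. The difference between these 2 values was tested in a model with both terms and came to 1.82 ± 0.41 (SE; edgeR adjusted p = 0.199). Over all members that difference was called for 0 of 28, against 0.0711% of all genes, with 5 at an unadjusted p under 0.05, against 10.6% of all genes. The 6 platelet markers, among them Pf4, summed to 52.9, 98.5, 51.3, 33.5 and 57.1 CPM in TMA-ARB tumours and to 57.1 to 84.6 CPM in Control tumours. Most of that sum was Pf4 and Ppbp in every library but TMA-ARB replicate 9. The platelet receptor gene Gp1bb measured 3.51, 1.12, 12.6, 15.6 and 16.6 CPM in TMA-ARB tumours, highest in the same 3 replicates as Itga2b, with 4.27 to 18.8 CPM in Control tumours. Gp1ba, Gp9 and Treml1 reached at most 1.95, 0.425 and 0.607 CPM. The part of platelet RNA in the Itga2b values was not tested.

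Because TMA-ARB replicates 8, 9 and 10 stood apart for several genes, the change of each member per doubling of the mitochondrial share was estimated at fixed treatment. This step was added after the data had been seen. EdgeR called 7 of 28 members (25.0%), against 17.4% of all genes tested. In the lower direction were Itga2, Itgb2, Itgb3 and Lamc1 (4 members, against 8.90% of all genes), and in the higher direction Itga2b, Itga7 and Itgb6 (3 members, against 8.48%). Without TMA-ARB replicate 6 the count was 4 of 28 members (14.3%), against 13.2% of all genes. Without TMA-ARB replicate 9 it was 4 of 29 (13.8%), against 9.40%. With 1 library left out the share over all genes ran from 9.40% to 17.6%.

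Itga2, a collagen and laminin receptor subunit of epithelium and platelets, fell most, by 1.36 ± 0.21 on the log2 scale per doubling of the share (SE; edgeR adjusted p = 0.000738). It measured 7.57, 7.89, 0.813, 0.103 and 1.49 CPM in TMA-ARB tumours, against 4.14, 4.88, 1.63, 1.08 and 2.00 CPM in Control tumours. The 4 libraries with the lowest mitochondrial shares were the 4 with the highest Itga2, in both groups. The call was kept without each of the 10 libraries in turn, with changes from -1.49 to -1.20. Over TMA-ARB against Control its log2 fold change was 0.39 ± 0.81, with replicates 6 and 7 above and replicates 8 and 9 below every Control tumour.

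Itgb2 fell by 0.53 ± 0.11 per doubling (edgeR adjusted p = 0.00387), and this call too was kept without each library in turn. It measured 78.0, 56.6, 59.5, 16.3 and 38.6 CPM in TMA-ARB tumours, against 92.4, 84.0, 37.4, 46.1 and 54.1 CPM in Control tumours. TMA-ARB replicate 9, the library with the highest mitochondrial share, was the lowest. The 7 leukocyte markers summed to 1911, 4079, 1039, 512 and 906 CPM in TMA-ARB tumours, against 3141, 2234, 999.6, 1639 and 1319 CPM in Control tumours. This sum was likewise lowest in replicate 9, and most of it was Lyz2 in every library. Csf1r, Cd68 and Cd3e were also lowest in replicate 9, at 28.0, 34.1 and 0 CPM. Ptprc was lowest in replicate 10 (49.9 CPM, against 59.6 in replicate 9) and Adgre1 in replicate 8 (9.68 CPM, against 15.3 in replicate 9). The part of these markers in the change was not tested.

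The other 5 calls were each lost without 1 or more libraries, while every estimate kept its sign. Lamc1 fell by 0.34 ± 0.08 per doubling and Itgb3 by 0.43 ± 0.11 (edgeR adjusted p = 0.0105 and 0.0193), and both calls were lost without TMA-ARB replicate 6 or without TMA-ARB replicate 9, at an adjusted p of up to 0.0646 and slopes of -0.30 to -0.34 for Lamc1 and -0.47 to -0.46 for Itgb3. Itga7 rose by 0.49 ± 0.13 (adjusted p = 0.0203), a call lost without TMA-ARB replicate 6, 7 or 9, at up to 0.0840 with slopes of 0.39 to 0.50. Itga2b rose by 0.50 ± 0.14 (adjusted p = 0.0237), a call lost without TMA-ARB replicate 6 or 7, at 0.0935 to 0.176 with slopes of 0.38 and 0.39. Itgb6 rose by 0.89 ± 0.23 (adjusted p = 0.0151), a call lost without TMA-ARB replicate 9 at 0.114 with a slope of 0.79. In that library it measured 5.43 CPM against at most 2.51 CPM in every other library.

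**Figure D4:**
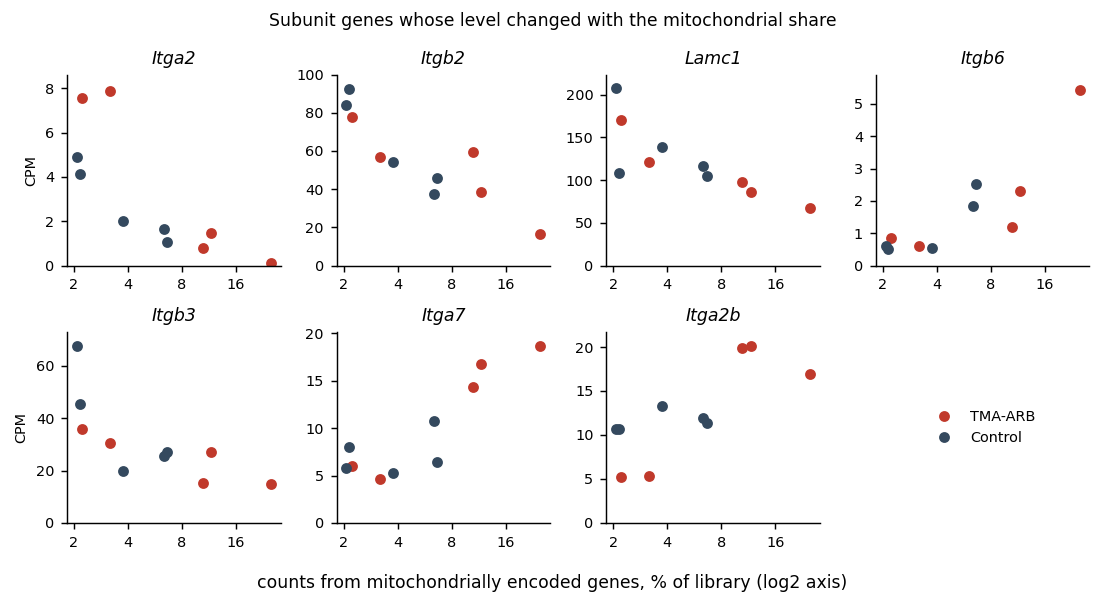
CPM of the 7 members called for a change with the mitochondrial share, against that share on a log2 axis, with 1 point per tumour. Itga2, Itgb2, Lamc1 and Itgb3 lie lower in libraries with a higher share and Itgb6, Itga7 and Itga2b higher, and the 3 rightmost libraries are TMA-ARB replicates 8, 9 and 10.

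No correlation between subunits of the same receptor or trimer passed adjustment across the 10 libraries. Of 18 partner pairs, 9 had a positive and 9 a negative Pearson correlation of log2 CPM, and 0 passed Benjamini-Hochberg adjustment over the 18 (1 at an unadjusted permutation p under 0.05, by Pearson). Itga2b and Itgb3 had r = -0.51 (permutation p = 0.130, adjusted p = 0.746; Spearman rho = -0.71, permutation p = 0.0266, adjusted p = 0.240). With the mitochondrial share removed by regression its r was 0.16 (permutation test, adjusted p = 0.855). The Pearson pair was Itgav with Itgb8, which form a receptor known to activate latent TGF-beta (Pearson r = 0.79, permutation p = 0.00942, adjusted p = 0.170; Spearman rho = 0.75, permutation p = 0.0173, adjusted p = 0.240). Its r was 0.75 without TMA-ARB replicate 10 and Control replicate 1, the libraries farthest from the median of Itgav. Itgb8 measured 10.2, 7.50, 21.8, 22.0 and 10.9 CPM in TMA-ARB tumours, against 8.28, 15.8, 15.3, 24.8 and 27.1 CPM in Control tumours. Lama3 and Lamb3 had r = -0.19 (permutation p = 0.580, adjusted p = 0.746; Spearman rho = -0.26, p = 0.472). Itga6 and Itgb4, the hemidesmosome receptor, had r = -0.02 (permutation p = 0.953, adjusted p = 0.953; Spearman rho = -0.03, p = 0.947). Within each side of a 5% mitochondrial share there were 5 libraries, and no correlation is given there.

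Genes of the same pathways gave 0 calls as well. Of the 4 tested leukocyte integrin alpha genes outside the rule, 4 were negative, with a median log2 fold change of -0.47. Itgax, the alpha subunit of dendritic cells and macrophages, averaged 12.1 ± 5.73 CPM in TMA-ARB tumours and 19.97 ± 5.52 CPM in Control tumours (unadjusted p = 0.0401, edgeR adjusted p = 0.997), and Itgal, the alpha subunit of lymphocytes, 16.7 ± 5.13 and 21.4 ± 5.44 CPM. Of 13 tested basement membrane partners of laminins 12 were negative, with a median of -0.35. Hspg2, which encodes perlecan, averaged 230.4 ± 53.0 CPM in TMA-ARB tumours and 323 ± 66.7 CPM in Control tumours, and Col4a6, a minor collagen IV chain, 0.401 ± 0.373 and 1.79 ± 0.881 CPM.

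Of 13 tested matrix and TGF-beta genes whose proteins are integrin ligands or their partners 11 were negative, with a median of -0.22, among them Tgfb3 at 17.9 ± 4.79 CPM in TMA-ARB tumours and 30.1 ± 6.52 CPM in Control tumours and Tgfb1 at 55.9 ± 21.3 and 92.1 ± 29.5 CPM. Of 24 tested cytoplasmic proteins of integrin adhesions 16 were negative (median -0.12), with Tns1, a tensin gene, at -0.54 and Zyx, which encodes zyxin, at -0.38. Of 6 tested laminin receptors of other families 4 were negative (median -0.12), with Sdc1, a syndecan gene, at -0.44 and Sgcb, a sarcoglycan gene, at 0.44. Of 6 tested immunoglobulin family ligands 4 were negative (median -0.04), with Jam2 at -0.53 and Icam2 at -0.27. The 4 hemidesmosome partners had 2 negative and 2 positive values (median 0.01), with Plec at -0.09 and Dst at 0.15, and the 5 tetraspanins had 3 negative (median -0.055), with Cd82 at -0.27 and Cd63 at 0.30. At an unadjusted p under 0.05 there were 2 of the 13 ligand genes, 2 of the 13 basement membrane genes, 1 of the 4 leukocyte integrin genes and 0 of the other 5 lists, against 3.25% of all genes tested.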

How the data were processed

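Estimated counts per Ensembl gene, in 1 table as the authors deposited it, were made with Salmon on mm10 per the submitters' processing notes. The Salmon version, annotation, strand setting and rounding are not given in the sources used here. The table holds whole numbers (0 were not). Columns carry the sample names of the labels. Without a stated strand setting, reads of a gene and an overlapping antisense gene cannot be told apart. Such genes share exon bases with Itgav (Gm13684, 2.28 CPM), Itga4, Itga7, Itga8, Itgb4, Lama2, Lama3 and Lamc3. Reads carried no molecular identifiers in these sources, so floors cover counting error only.

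The groups came from the sample titles. Genes were tested by quasi-likelihood in edgeR 4.0.16 (run under R 4.3.3) after its standard low-count filter and TMM scaling, with robust dispersions and Benjamini-Hochberg adjustment over 14063 genes. The SE is the absolute log2 fold change divided by the square root of F. Log2 CPM used a prior count of 2, and correlations 100000 permutations. The edgeR step was checked on simulated data. Alternatives used DESeq2 1.42.0 and limma 3.58.1, other filters and scaling, the mitochondrial share and left-out libraries. Exon lengths and coordinates are those of GENCODE vM21 (GRCm38, the assembly named mm10). Figures used matplotlib 3.10.9.

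Members, lists and tests were chosen with earlier results of these data known. Values per library are given for the 8 tested members of smallest p and the highest member per kb of each of the 5 chain classes. Up to 2 members of smallest p are named from each of 8 companion lists. The values of 1 tested member are not reported here, though the counts and medians include it. Other members named with values were chosen after their values were seen.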

Additional observations from a re-analysis of the deposited data

Results flagged for a closer look

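In 64 groups of 5 values, 1 held a value far from the other 4, where chance would flag about 1 in 20. Itga11 was at 6.72 CPM in TMA-ARB replicate 8, with the other TMA-ARB tumours between 1.71 and 2.97 CPM.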

How the results depend on the processing

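No paired analysis was possible because the groups share no replicate number. The count of called members was 0 under every alternative run. The count of called genes was 2 with DESeq2, 4 in the libraries above a 5% mitochondrial share and 0 under all others. The integrin median was -0.25 below that share, and with 1 library left out it ran from -0.14 to -0.02, and the laminin median from -0.16 to 0.08. The difference in mitochondrial share ran from 2.69 points without TMA-ARB replicate 9 to 8.38 points without TMA-ARB replicate 6 (exact permutation p = 0.0397), and the members changing with that share from 4 to 8. Leaving out TMA-ARB replicates 8, 9 and 10 reversed Itga7 (-0.43), Itga10 (-0.032), Lamc1 (0.11) and Itga2b (-1.12). Libraries below 5% reversed Itga7 (-0.25), Itga10 (-0.13) and Itga2b (-1.11), and those above it reversed Itga11 (0.17) and Itga2 (-0.74). Itga2 was also -0.73 with limma-voom and -0.10 to 0.70 with 1 library left out, and Itga2b -0.47 with the share as a covariate. Itgb1, near 0, was 0.0081 with RLE scaling, 0.0051 with no filter, 0.0055 without mitochondrial genes, 0.0064 with DESeq2, 0.22 with the share as a covariate, 0.36 without replicates 8, 9 and 10, 0.22 below 5%, and -0.19 to 0.14 with 1 library left out. The causes were not tested. Itgb5 kept its sign in all 20 alternatives (-0.59 to -0.39). So did Itga5, Itga9, Itgb3, Lama4 and Lamb1, and Itga1 did in the 19 run for it. These alternatives reuse the same libraries, and Itgb5 was picked for its p in them, so a kept sign is not independent support. Genes at a few counts, such as Lama1 and Lama2, cannot be compared at this depth.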
